A study of Homo sapiens with 6 samples.

Results

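The alpha and beta tubulin isotypes are the 10 genes TUBA1A, TUBA1B, TUBA1C, TUBA4A, TUBB, TUBB2A, TUBB2B, TUBB3, TUBB4B and TUBB6, chosen by gene symbol from the 30618 genes of the count table. All 10 were found, and all 10 passed the filter on low counts that left 16749 genes for testing. They were measured by RNA-seq of polyadenylated RNA in ARPE-19 cells, an established human retinal pigment epithelial (RPE) line. All 6 libraries came from cells in 50 mM glucose, a culture model of diabetic retinopathy, and no library in normal glucose was among them. The NC group (n = 3) received a control siRNA and the siEIF1 group (n = 3) received an siRNA against EIF1, a factor that helps the ribosome choose the start codon. The paper's methods call the replicates of each group biologically independent, and a single cell line and a single siRNA against EIF1 stand behind every comparison.

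The libraries held between 26499929 and 31431479 counts. EIF1 stood at 285.6 ± 7.6 FPKM (SD, n = 3) in NC and 23.49 ± 0.8 FPKM in siEIF1, with no overlap (two-sided exact permutation p = 0.1, the smallest p that 3 against 3 allows). FPKM is the fragments of a gene scaled to its length and to the mapped fragments of the library. It allows levels of different genes to be compared only as far as the gene lengths used are right. Those lengths are not given in the sources used here. Of 16 RPE markers, RPE65, TYR, DCT, TTR and CDH3 had no value above 0.1 FPKM, while the epithelial keratins KRT8 and KRT18, the transcription factors OTX2 and MITF and the channel gene BEST1 were expressed. Of the 10 RPE markers tested, 3 rose in siEIF1 (KRT8, KRT18 and RLBP1), beside 10.2% of all tested genes, and 7 did not pass. RLBP1 was low, at 0.17 to 0.27 FPKM in NC and 0.62 to 0.73 FPKM in siEIF1. LRAT, TYRP1, PMEL and MERTK were also low, with no value above 0.41 FPKM. The summed level of the list was 523.2 to 542 FPKM in NC and 566 to 611.9 FPKM in siEIF1. Most of this sum was KRT18 (means 326.5 FPKM in NC and 382 FPKM in siEIF1) and KRT8 (113 and 131.5 FPKM). BEST1, next in level, had means of 65.97 and 51.96 FPKM and did not pass. Of 8 fibroblast markers, 5 had no value above 0.1 FPKM. PDGFRB rose and FAP fell, and the list summed to 9.67 to 12.07 FPKM in NC and 13.63 to 16.01 FPKM in siEIF1. Of 6 immune markers, 5 had no value above 0.1 FPKM. The part of these shifts in the tubulin values was not tested. Of 10 neuronal markers, 9 had no value above 0.1 FPKM. On the second principal component of all genes, which held 20.5% of the variance, siEIF1 replicates 1 and 3 lay at opposite ends (26.1 and -21.2).

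Microtubules are built from dimers of an alpha and a beta tubulin, and human cells carry several genes, or isotypes, of each. The isotypes share a conserved body and differ mainly in the acidic tail at the end of the protein, where most tubulin modifications are placed. Cells also tune tubulin mRNA to the amount of free dimer: when dimers are in excess, the factor TTC5 recognises the start of the nascent tubulin chain on the ribosome and the mRNA is degraded. TUBA1B, TUBA1C, TUBB and TUBB4B are broadly expressed isotypes, TUBA1A and TUBB2B are known from developing neurons, and TUBB3 is the classical neuronal beta isotype. In the retinal pigment epithelium, microtubules carry pigment granules and phagosomes, and in dividing cells they form the spindle.

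The direction of change differed among 3 closely related alpha genes. TUBA1B (ENSG00000123416.15, chr12:49127782-49131397, minus strand), TUBA1A (ENSG00000167552.15, chr12:49184686-49189080, minus strand) and TUBA1C (chr12:49188736-49274600, plus strand) lay within 146.8 kb of GRCh38 in GENCODE 44, each with 4 exons in its canonical transcript. Over the coding sequence, TUBA1A and TUBA1B were identical at 97.2% of bases, the highest of the 6 alpha pairs, whose lowest value was 84.4% for TUBA1A and TUBA4A. Among the 15 beta pairs, identity ran from 80.9% for TUBB and TUBB6 to 98.2% for TUBB2A and TUBB2B. The first 12 coding bases, which encode the start of the chain that TTC5 reads, are printed in capitals throughout. They were ATGCGTGAGTGC in TUBA1A, TUBA1B and TUBA1C and ATGAGGGAAATC in TUBB and TUBB4B.

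After EIF1 knockdown, TUBA1B and TUBB4B fell most among the 10 isotypes, TUBA1C and TUBB6 fell less, and TUBA1A rose. A gene passed at an adjusted p under 0.05 in the quasi-likelihood test of edgeR, adjusted by Benjamini-Hochberg across the 16749 genes. By this rule 1 of 10 members rose, 4 fell and 5 did not pass, while 20.6% of all tested genes passed, 10.2% higher and 10.4% lower. None of the 10 also passed the limits of the study's methods on the fold (above 2 or below 0.5), which 1.71% of tested genes did. The median log2 fold change of the members was -0.06, with a range of -0.66 to 0.44, and that of all tested genes was 0.0033. Counts scaled to the library total (CPM) in the groups did not overlap for 5 of the 10 members, against 37.1% of tested genes. Without NC replicate 1, the number that fell was 2. In these bulk samples, fewer cells of a type and less RNA per cell cannot be told apart.

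**Figure D1:**
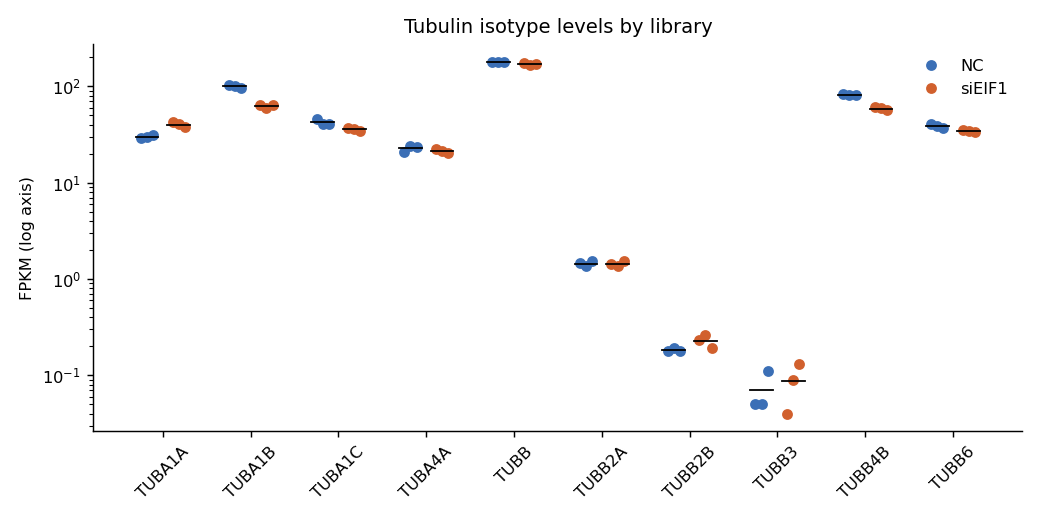
FPKM of the 10 isotypes on a log axis in each of the 3 NC (blue) and 3 siEIF1 (orange) libraries, with black lines at the group means. TUBB, TUBA1B and TUBB4B were the 3 highest in every library, and the groups stood clearly apart for TUBA1A, TUBA1B and TUBB4B.

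TUBA1B, the most abundant alpha isotype here, stood at 104.46, 99.82 and 96.82 FPKM in NC replicates 1 to 3. In siEIF1 replicates 1 to 3 it stood at 64.55, 59.96 and 63.55 FPKM. Every siEIF1 library was below every NC library. The means were 100.4 ± 3.85 FPKM in NC and 62.69 ± 2.41 FPKM in siEIF1 (SD, n = 3). The fitted log2 fold change was -0.66 (SE 0.0506, edgeR adjusted p = 1.61e-06), or 63.3% of NC. TUBA1B passed under 14 of 14 alternative settings, with log2 fold changes from -0.69 to -0.63.

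TUBA1A, which encodes an alpha tubulin best known for its role in migrating neurons, moved the other way. It stood at 29.08, 29.57 and 31.29 FPKM in NC and at 42.19, 40.54 and 37.57 FPKM in siEIF1, so every siEIF1 library was higher. The means were 29.98 ± 1.16 and 40.1 ± 2.34 FPKM (SD, n = 3), and the log2 fold change was 0.44 (SE 0.0564, edgeR adjusted p = 0.000124), or 136% of NC. It passed under 14 of 14 alternative settings, with log2 fold changes from 0.40 to 0.50. The neuronal marker list summed to 0.97 to 1.07 FPKM in NC and 1.03 to 1.22 FPKM in siEIF1, with 9 of 10 markers at or near 0.

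The ratio of TUBA1A to TUBA1B FPKM, chosen after the values were seen, was 0.2784, 0.2962 and 0.3232 in NC and 0.6536, 0.6761 and 0.5912 in siEIF1. The groups did not overlap, and the mean ratio was 2.14 times higher in siEIF1 (two-sided exact permutation p = 0.1). TUBA1C, the third gene of the chromosome 12 group, stood at 45.65, 41.08 and 40.7 FPKM in NC and at 37.1, 36.23 and 34.8 FPKM in siEIF1. NC replicate 1 was the highest and the groups did not overlap. Its log2 fold change was -0.22 (SE 0.0578, edgeR adjusted p = 0.0176), or 86.1% of NC. Without NC replicate 1 the adjusted p of TUBA1C was 0.0776. TUBA4A (chr2:219249710-219277902), an alpha isotype whose protein lacks the terminal tyrosine codon of the other alphas at synthesis, did not pass. It stood at 20.9 to 23.86 FPKM in NC and 20.47 to 22.29 FPKM in siEIF1, with overlapping groups and a log2 fold change of -0.07 (95% interval -0.20 to 0.06).

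The alpha transcripts share stretches of sequence, and the authors counted uniquely mapped reads, so reads from identical stretches may be missing from the counts. Of the 150-base windows of the canonical TUBA1B transcript, 19.1% occurred without a mismatch in another member and 73.8% with up to 4 mismatches. For TUBA1A these shares were 8.0% and 59.6%, and for TUBA1C they were 7.2% and 37.2%. The counts of TUBA1A, TUBA1B and TUBA1C summed before the fit gave a log2 fold change of -0.28. A transcript on the opposite strand, TUBA1B-AS1, contained 64.2% of the TUBA1B windows. It also contained 7.0% of the TUBA1A windows, and 34.5% with up to 4 mismatches. The gene bounds of TUBA1A and TUBA1C overlap on opposite strands, and TUBA1C contained 1.1% of the TUBA1A windows without a mismatch. TUBA1B-AS1 had 1249, 1512 and 1161 counts in NC and 1046, 840 and 617 in siEIF1, a log2 fold change of -0.76 (SE 0.136, edgeR adjusted p = 0.00148). The libraries were strand-specific, but the strand setting of the counting is not given in the sources used here. Of the TUBA1C windows, 24.9% occurred without a mismatch in genes outside the members. ENSG00000258232, opposite TUBA1C, contained 18.3%. For TUBA4A, 0.0% of the windows occurred in another member, also with up to 4 mismatches. STK16, opposite TUBA4A, contained 25.2% of its windows without a mismatch. The part of shared reads in the TUBA1A, TUBA1B, TUBA1C, TUBA4A and TUBA1B-AS1 values was not tested.

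TUBB4B (ENSG00000188229.6, chr9:137241287-137243707, plus strand), a broadly expressed beta isotype, fell most among the beta genes. It stood at 83.48, 81.59 and 81.11 FPKM in NC and at 60.84, 58.98 and 56.51 FPKM in siEIF1, with no overlap. The means were 82.06 ± 1.25 and 58.78 ± 2.17 FPKM (SD, n = 3), and the log2 fold change was -0.46 (SE 0.05, edgeR adjusted p = 3.23e-05), or 72.7% of NC. TUBB4B passed under 14 of 14 alternative settings, with log2 fold changes from -0.48 to -0.42. Of its 150-base windows, 0.0% occurred in another member and 5.4% did so with up to 4 mismatches.

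TUBB (chr6:30717435-30725538, plus strand), the major beta isotype of many cultured cells, was the highest isotype in all 6 libraries and did not pass. It stood at 180.95, 179.12 and 177.76 FPKM in NC and at 175.66, 167.36 and 169.95 FPKM in siEIF1. The FPKM of the groups did not overlap, whereas their CPM did. Its log2 fold change was -0.05, with a 95% interval of -0.15 to 0.06 (edgeR adjusted p = 0.541). The ratio of TUBB4B to TUBB FPKM was 0.4577 ± 0.00317 in NC and 0.3438 ± 0.0102 in siEIF1 (SD, n = 3; two-sided exact permutation p = 0.1). This pair was also chosen after its values were seen. Of the TUBB windows, 19.1% occurred without a mismatch in genes outside the members, and 50.0% with up to 4 mismatches. ENSG00000272540, on the opposite strand, contained 16.5% without a mismatch. TUBBP1 contained 2.7% without a mismatch and 41.3% with up to 4 mismatches. The part of shared reads in the TUBB values was not tested.

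TUBB6 (chr18:12307669-12344320, plus strand), a divergent beta isotype, stood at 40.38, 38.82 and 37.41 FPKM in NC and at 35.19, 34.55 and 33.67 FPKM in siEIF1. The groups did not overlap and the log2 fold change was -0.15 (SE 0.0509, edgeR adjusted p = 0.0493), or 90% of NC. This call sat at the threshold: TUBB6 passed under 7 of 14 alternative settings, with adjusted p from 0.012 to 0.163.

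The other 3 beta isotypes were low and did not pass. TUBB2A (chr6:3153497-3157544) stood at 1.35 to 1.52 FPKM in NC and 1.35 to 1.54 FPKM in siEIF1, a log2 fold change of 0.02 (95% interval -0.24 to 0.27). Its neighbour TUBB2B (chr6:3223324-3231730) stood at 0.18 to 0.19 and 0.19 to 0.26 FPKM, a log2 fold change of 0.32 (95% interval -0.21 to 0.85). In sequence, 48.7% of TUBB2A windows and 40.3% of TUBB2B windows occurred in another member, so their separate counts are uncertain. Their summed counts gave a log2 fold change of 0.07.

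TUBB3 (chr16:89921392-89938761) had 12, 12 and 28 counts in NC and 11, 25 and 34 in siEIF1, with an interval of -0.61 to 1.26 for its log2 fold change of 0.32. TUBB3 did not pass (edgeR adjusted p = 0.661). The TUBB3 level is uncertain in itself, because a read-through gene on the same strand (ENSG00000198211) contained 92.3% of its windows. The read-through gene had 498, 649 and 587 counts in NC and 899, 891 and 796 in siEIF1, a log2 fold change of 0.47 (SE 0.0803, edgeR adjusted p = 0.00114). How the counting divided their common reads is not given in the sources used here.

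Summed over the 10 isotypes, tubulin mRNA was lower in every siEIF1 library than in every NC library. The total stood at 506.6, 495.4 and 490.1 FPKM in NC and at 439.5, 420.6 and 418.4 FPKM in siEIF1, a ratio of the means of 0.857. Alpha isotypes summed to 195.5 ± 4.14 and 160.2 ± 5.22 FPKM (SD, n = 3), a ratio of 0.819, and beta isotypes to 301.9 ± 4.26 and 266 ± 6.42 FPKM, a ratio of 0.881. The alpha share of the total was 39.5%, 39.22% and 39.18% in NC and 37.8%, 37.56% and 37.38% in siEIF1, also without overlap. The net difference of -71.2 FPKM was made of -81.4 FPKM over the 7 members with a lower mean and 10.2 FPKM over the 3 with a higher mean. TUBA1B and TUBB4B together gave -61.0 FPKM, or 74.9% of the summed decrease, and TUBA1A gave 10.12 FPKM of the increase.

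**Figure D2:**
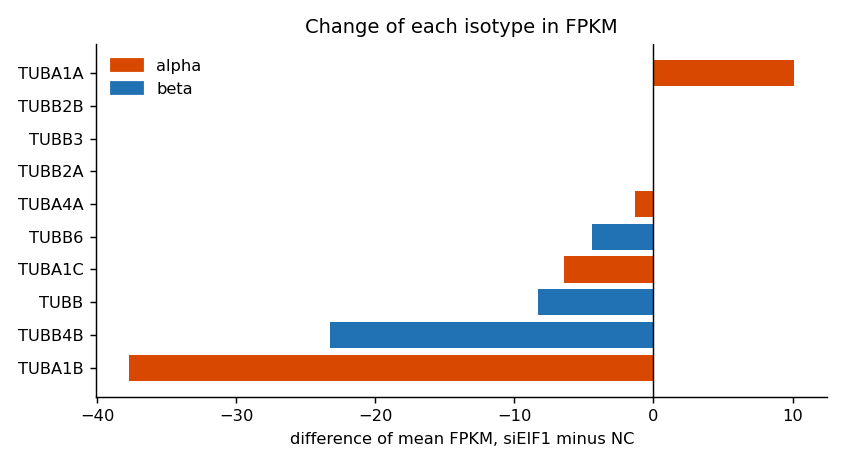
Difference of the mean FPKM, siEIF1 minus NC, of each isotype, with alpha genes in orange and beta genes in blue; the bars carry no error. TUBA1B at -37.68 FPKM and TUBB4B at -23.28 FPKM were the longest, and TUBA1A at 10.12 FPKM pointed the other way.

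The share of each isotype in the tubulin pool was compared next. TUBA1B made 20.17% ± 0.434 of the total tubulin FPKM in NC and 14.71% ± 0.467 in siEIF1 (SD, n = 3), a difference of -5.46 percentage points. TUBB4B made 16.5% ± 0.0436 and 13.79% ± 0.262, a difference of -2.71 points, or -1.67 points by counts and -2.01 with canonical transcript lengths. TUBA1A made 6.031% ± 0.326 and 9.406% ± 0.37, a difference of 3.38 points. TUBB, whose own level did not pass, made 36.05% ± 0.289 and 40.13% ± 0.437 of a smaller pool. The share of TUBA1C, whose level fell, was 8.535% in NC and 8.458% in siEIF1, with overlapping groups. TUBB6, whose level fell by less than the pool, made 7.813% and 8.09%.

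Of the 10 shares, 8 did not overlap between groups and TUBA1C and TUBB3 did. By CPM, the groups did not overlap for 5 of the 10 members, against 37.1% of tested genes. The 8 shares include TUBA4A, TUBB, TUBB2A and TUBB2B, whose own CPM overlapped and whose levels did not pass. The shares of these genes were higher in a smaller total. Each of the 8 had a two-sided exact permutation p of 0.1 and 0.125 after Benjamini-Hochberg adjustment over the 10 shares, so none could pass 0.05 with 3 against 3. The shares add to a whole, so they are not independent of each other. Within the alpha isotypes alone, TUBA1B went from 51.33% to 39.15% and TUBA1A from 15.35% to 25.03%. Within the beta isotypes, TUBB went from 59.39% to 64.29% and TUBB4B from 27.18% to 22.09%.

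**Figure D3:**
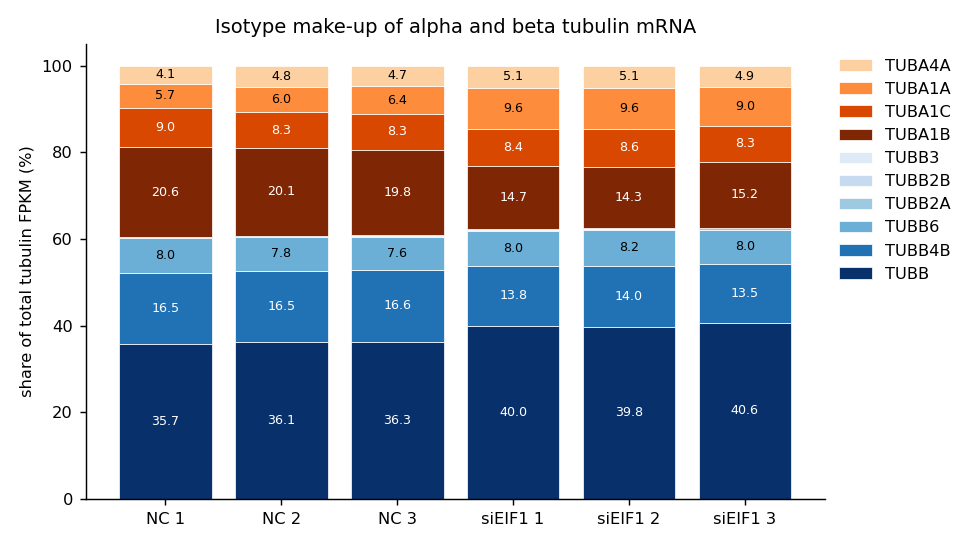
Share of the summed FPKM of the 10 isotypes, in percent, in each library, with beta isotypes in blue below alpha isotypes in orange. The TUBA1B band spans 19.75% to 20.62% in NC and 14.26% to 15.19% in siEIF1, while the TUBA1A and TUBB bands are wider in siEIF1.

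The order of the levels was the same in the 3 libraries of a group. In NC it ran TUBB, TUBA1B, TUBB4B, TUBA1C, TUBB6, TUBA1A, TUBA4A, TUBB2A, TUBB2B and TUBB3. In siEIF1 TUBA1A moved from place 6 to place 4, ahead of TUBA1C and TUBB6. In siEIF1 the neighbours TUBA1B (59.96 to 64.55 FPKM) and TUBB4B (56.51 to 60.84 FPKM) overlapped across libraries, as did TUBA1C (34.8 to 37.1 FPKM) and TUBB6 (33.67 to 35.19 FPKM). In NC the ranges of neighbours did not overlap. This order depends on the gene length behind the FPKM. That length is not given in the sources used here. Back-calculated with the count totals as denominator, it came out at 1.6 times (TUBB4B) to 5.23 times (TUBB3) the canonical transcript. For TUBA1B it came out at 4375 bases, longer than the whole gene (chr12:49127782-49131397). The back-calculated values can therefore not be taken as the lengths used. Dividing the counts by the canonical length instead, an alternative added after the data were seen, put TUBB4B at place 3 in NC and 4 in siEIF1, and TUBA1A at 5 and 3. The share of TUBA1A was then 7.8% in NC and 12.2% in siEIF1, and that of TUBA1B 25.1% and 18.3%.

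The 250 bases before the RefSeq start site (GRCh38.p14) are printed for TUBA1A, TUBA1B and TUBA1C, since genes side by side on chromosome 12 moved apart. They are also printed for TUBB4B, which fell most among the beta genes. The sequences run 5′ to 3′ on the gene's strand. Capitals mark 4 short motifs on either strand. CCAAT is the box bound by NF-Y and reads ATTGG on the other strand. GGGCGG is the box bound by SP1 and reads CCGCCC on the other strand. TATAA is the core of the TATA box and reads TTATA on the other strand. The core of the CHR element of cell cycle genes is TTTGAA and reads TTCAAA on the other strand.
TUBA1A, chr12:49189081-49189330, minus strand: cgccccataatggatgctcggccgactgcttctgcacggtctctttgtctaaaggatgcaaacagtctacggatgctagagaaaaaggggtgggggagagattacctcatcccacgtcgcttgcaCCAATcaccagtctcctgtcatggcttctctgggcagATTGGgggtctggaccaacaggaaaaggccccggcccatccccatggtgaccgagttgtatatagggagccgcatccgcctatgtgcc
TUBA1B, chr12:49131396-49131645, minus strand: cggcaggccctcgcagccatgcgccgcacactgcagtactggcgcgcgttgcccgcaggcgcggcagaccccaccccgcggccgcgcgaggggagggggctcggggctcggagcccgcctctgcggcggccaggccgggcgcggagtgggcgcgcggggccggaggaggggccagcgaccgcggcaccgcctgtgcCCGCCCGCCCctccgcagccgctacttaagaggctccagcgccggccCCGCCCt
TUBA1C, chr12:49264832-49265081, plus strand: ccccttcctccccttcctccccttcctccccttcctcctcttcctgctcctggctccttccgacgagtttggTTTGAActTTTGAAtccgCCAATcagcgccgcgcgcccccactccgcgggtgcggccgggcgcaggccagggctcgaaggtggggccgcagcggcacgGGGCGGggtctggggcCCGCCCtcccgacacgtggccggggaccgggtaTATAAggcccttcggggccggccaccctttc
TUBB4B, chr9:137241037-137241286, plus strand: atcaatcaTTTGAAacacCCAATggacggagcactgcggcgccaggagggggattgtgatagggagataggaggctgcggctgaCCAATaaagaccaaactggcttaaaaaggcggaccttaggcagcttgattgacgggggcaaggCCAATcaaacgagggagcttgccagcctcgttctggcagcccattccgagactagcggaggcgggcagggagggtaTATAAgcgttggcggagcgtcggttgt
TUBA1A held 1 CCAAT and 1 ATTGG and no other match. TUBA1B held 3 CCGCCC, of which 2 overlapped each other, and no other match. TUBB4B held 3 CCAAT, 1 TATAA and 1 TTTGAA, and TUBA1C held 1 CCAAT, 1 GGGCGG, 1 CCGCCC, 1 TATAA and 2 TTTGAA. Among 35116 RefSeq promoters of this length, 32.0% held CCAAT, 42.6% GGGCGG, 18.9% TATAA and 13.3% TTTGAA on either strand. Of the isotypes not printed, TUBB, which did not pass, held 1 CCAAT and 1 CCGCCC. TUBB6, which fell, held 1 ATTGG, 5 GGGCGG and 1 CCGCCC. These matches describe the letters only, binding was not measured, and a link between motifs and direction was not tested.

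Other tubulin genes were low or moved separately. TUBB4A, a beta isotype of the nervous system, was the only tested gene of 8 further alpha and beta tubulins and rose from 4.22 ± 0.414 to 5.047 ± 0.185 FPKM (SD, n = 3), a log2 fold change of 0.28 (SE 0.0806, edgeR adjusted p = 0.0262), which passed under 9 of 14 alternatives. Its edgeR adjusted p was 0.105 without NC replicate 1, 0.0671 without siEIF1 replicate 1 and 0.0943 without siEIF1 replicate 2. Of 4 gamma, delta and epsilon tubulins 2 fell, as did 10.4% of all tested genes. TUBG1, which nucleates microtubules at centrosomes, fell from 6.43 ± 0.508 to 4.14 ± 0.252 FPKM, a log2 fold change of -0.61 (edgeR adjusted p = 5.42e-05). TUBE1, the epsilon tubulin of centrioles, had a log2 fold change of -0.38 (edgeR adjusted p = 0.00143). TUBG2 had a log2 fold change of -0.03 and did not pass.

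The genes that fold tubulin were read against the 20.6% of all tested genes that passed (10.2% higher, 10.4% lower). Of the 7 cofactors that assemble the dimer, 1 rose (TBCD, log2 fold change 0.20, edgeR adjusted p = 0.0458, passing under 6 of 14 alternatives) and the median was -0.02. Of the 8 subunits of the CCT chaperonin, which folds tubulin and actin, 1 fell (TCP1, -0.21, edgeR adjusted p = 0.0228) and the median was -0.09. Of the 6 prefoldin subunits, which hand nascent tubulin to CCT, 1 fell: PFDN2 went from 105.1 ± 12.4 to 77.26 ± 3.83 FPKM (SD, n = 3), a log2 fold change of -0.42 (edgeR adjusted p = 0.00105), and the median was -0.03. Of 4 tested genes for autoregulation and sequestering of tubulin, 2 fell, beside 10.4% of all tested genes: STMN1, which binds free dimers (-0.31, edgeR adjusted p = 0.0022), and TTC5 (-0.27, edgeR adjusted p = 0.0108). TCP1 and TTC5 each passed under 10 of 14 alternatives. Left without NC replicate 1 or siEIF1 replicate 2, TCP1 had an edgeR adjusted p of 0.0937 or 0.105, and without NC replicate 3 or siEIF1 replicate 2, TTC5 had 0.0513 or 0.0591. TBCD passed without siEIF1 replicate 1 and missed without each other library. Of 18 tested enzymes that modify tubulin, 0 passed in edgeR, beside 20.6% of all tested genes, with a median log2 fold change of 0.03. At an unadjusted p under 0.05 edgeR gave 3 of them, and 0 passed in DESeq2 and 0 in limma on either FPKM scale. VASH1, which removes the terminal tyrosine of alpha tubulin and is named after its values were seen, passed under 2 of 14 alternatives, with an edgeR adjusted p of 0.0481 with a replicate block and 0.0254 without siEIF1 replicate 1. The CCT subunit CCT7 passed under 1 of 14, with an edgeR adjusted p of 0.0336 with a replicate block.

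**Figure D4:**
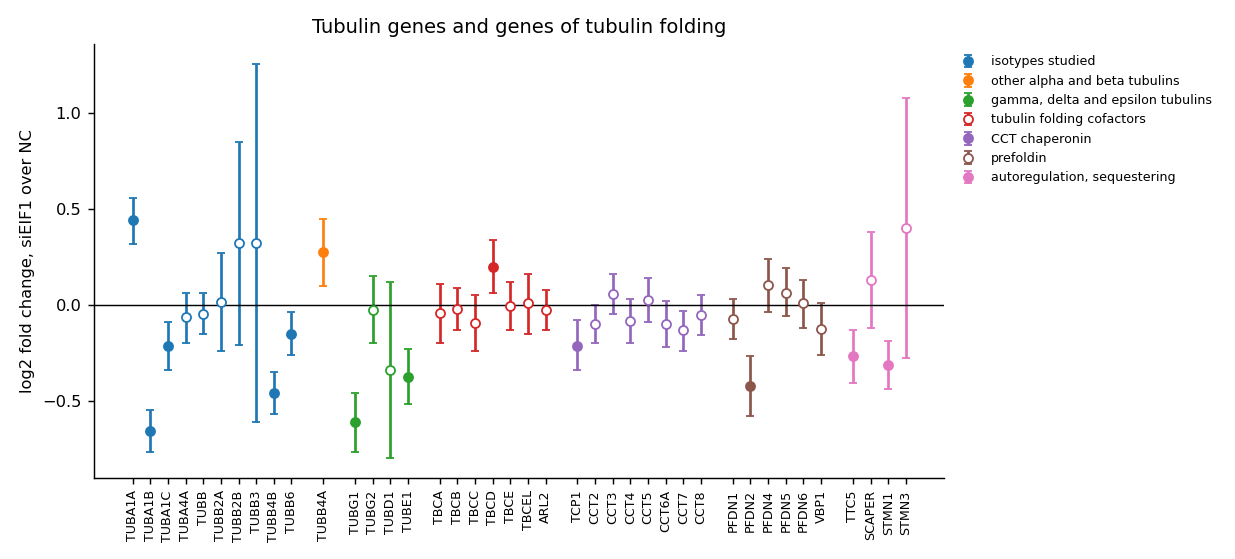
Log2 fold change of siEIF1 over NC with its 95% interval for the 10 isotypes and for other tubulins, folding and autoregulation genes, with filled circles for an edgeR adjusted p under 0.05. TUBA1B at -0.66 and TUBG1 at -0.61 were the lowest of these genes, and TUBA1A at 0.44 the highest.

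Mitosis and proliferation markers moved in the same comparison. All 10 of 10 fell in edgeR, beside 10.4% of all tested genes. Of them 8 passed the fold limits, which 1.71% of tested genes did in either direction. The median log2 fold change of the markers was -1.26. Their summed level was 24.86 to 27.94 FPKM in NC and 10.95 to 11.64 FPKM in siEIF1, and their part in the tubulin values was not tested.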

How the data were processed

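The authors prepared strand-specific libraries from polyadenylated RNA, read them as 150-base pairs, trimmed reads with FASTX-Toolkit 0.0.13 and aligned them to GRCh38 with HISAT2 (submitters' notes and paper's methods). The authors counted uniquely mapped reads and deposited raw counts per gene and, separately, FPKM values. The counting program, its strand setting and the gene lengths are not given in the sources used here. Libraries were grouped by sample title, and 0 columns were left unmatched.

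Counts of all genes were fitted with edgeR 4.0.16 in R 4.3.3 (TMM, filterByExpr, quasi-likelihood test, Benjamini-Hochberg adjustment over 16749 genes). The standard error came from the F statistic. FPKM served for levels and shares, the latter tested by two-sided exact permutation over libraries. The code was tested on simulated data.

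Alternatives were DESeq2 1.42.0, limma 3.58.1 on log2(FPKM + 1) and log2(FPKM + 0.1), RLE and upper-quartile scaling, no filter, at least 10 counts in every library, a replicate block and leaving out each library. Named genes were all members, EIF1, members of the pathway lists that passed (up to 4 a list, by smallest p, plus those needed to describe a list), the 5 genes most like total tubulin, and markers. Members and lists were chosen with earlier results of these data known. Sequences came from RefSeq (GRCh38.p14) and GENCODE 44 (GRCh38). All 10 members were matched by symbol. Part of the coding sequence of the isotypes is not reported here.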

Additional observations from a re-analysis of the deposited data

How the results depend on the processing

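TUBA1A, TUBA1B, TUBB4B and EIF1 kept their direction and passed under all 14 alternative fits. TUBA1C passed in 13 and TUBB6 in 7, missing with upper-quartile scaling and without each library in turn. The number of members that fell was 4, and 2 to 3 when a library was left out, with 2 without NC replicate 1. It was 2 at an adjusted p under 0.01 and 0 with the fold limits, where the number that rose was also 0. The number of other listed genes that rose was 2, against 1 with DESeq2, 0 with limma at either pseudocount 0 to 2 with a library left out and 3 with a replicate block. TUBB2A, at 0.02, changed sign to -0.00 with limma at either pseudocount, and its range with a library left out was -0.03 to 0.05. TUBB3 ranged from -0.05 (without siEIF1 replicate 3) to 0.83. The share difference of TUBA1C, -0.0778 percentage points, ranged from -0.2 to 0.16 with a library left out (0.16 without NC replicate 1). Total tubulin, as summed TMM-scaled CPM, differed by -251 CPM, a ratio of 0.886 against 0.857 in FPKM. The difference in alpha share was -2.24 points by counts and -2.09 with canonical lengths, against -1.72, and that of TUBB4B was -1.67 and -2.01, against -2.71. None (0) of the 5 genes most like total tubulin stayed when members were weighted equally. The cause of these shifts was not tested. Replicate numbers were not treated as pairing the libraries: deviations of same-numbered libraries correlated at 0.149, 0.0946 and 0.128, each the highest for its libraries. With a replicate block the adjusted p was 0.012 for TUBB6 and 0.00155 for TUBA1C, and no call of a member changed. TUBB3 and TUBB2B had only 11 to 40 counts a library and wide intervals.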

Other observations

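Of 8021 other genes that averaged 500 or more counts, the 5 whose log2 CPM followed the summed tubulin counts most closely over the 6 libraries were PTGR1, CHMP1B, BBIP1, DPM2 and TDRP. PTGR1, a prostaglandin reductase, had a root mean square difference of 0.00687 on the log2 scale, CHMP1B, an ESCRT-III subunit, 0.0105 and BBIP1, a subunit of the BBSome of cilia, 0.0125. The median over all genes compared was 0.125. Their own log2 fold changes were -0.17, -0.16 and -0.17, and the likeness is a description over 6 libraries in 2 groups.

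Genes whose bounds overlap those of tubulin genes on the opposite strand had their own values. MDC1, a DNA damage adaptor, overlaps TUBB by gene bounds but was not among the genes that contained windows of the canonical TUBB transcript. MDC1 had 650 to 774 counts in NC and 552 to 663 in siEIF1, a log2 fold change of -0.35 (SE 0.0834, edgeR adjusted p = 0.00915). ENSG00000272540, also opposite TUBB, had a log2 fold change of -0.25 and did not pass (edgeR adjusted p = 0.186). STK16, a kinase opposite TUBA4A, had a log2 fold change of 0.05 and did not pass (edgeR adjusted p = 0.644).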
